A study of Mus musculus with 12 samples.

Results

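This comparison set the striatum of mice given SN-011 after a transient stroke against the striatum of mice given vehicle after the same stroke. It used 6 of the 12 libraries of the series, chosen by title: the 3 titled SN011 and the 3 titled vehicle. All 6 came from C57BL/6J mice that underwent transient middle cerebral artery occlusion, in which the main artery of the lateral striatum and cortex is closed temporarily before blood flow is restored. The vehicle libraries carry the treatment PBS, and the others SN-011. A sham group of 3 libraries, given PBS without the occlusion, is cited below for its levels. The sham libraries and a further 3 SN-011 libraries, whose titles carry the prefix 3d, also entered the fit, where they bear on the filter on low counts, the scaling and the shared estimate of the spread. The sources used here do not give age, sex, dose, route, the time of sampling or the side of the brain taken. The labels do not tie each library to an animal of its own, so the p-values measure only the spread between these libraries, which may be technical.

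STING is a membrane protein of the endoplasmic reticulum that responds to cyclic GMP-AMP, a second messenger made by the enzyme cGAS when it meets DNA in the cytosol. STING then recruits the kinase TBK1, which phosphorylates the transcription factor IRF3, and the pathway ends in type I interferon and NF-kB target genes. In the brain, microglia are the cells best known for using it. SN-011 is a small-molecule antagonist of STING. After a stroke, microglia and incoming macrophages clear debris, astrocytes around the injury become reactive, and the projection neurons that make up most of the striatum are at risk of dying.

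Libraries held between 15806076 and 17476546 counts each, and 18537 genes were tested. In a principal component analysis of the 6 libraries, PC1 took 48.9% of the variance. The vehicle libraries lay at -36.2, -30 and -18 on it, and SN-011 replicates 1, 2 and 3 at 18.7, -6.3 and 71.8. SN-011 replicate 3 therefore stood apart, and SN-011 replicate 2 lay nearest to the vehicle libraries. Mitochondrially encoded genes took 5.16% to 6.82% of the counts in vehicle and 4.67% to 5.46% in SN-011. The tissue label was met in all 6 libraries by the marker genes of striatal projection neurons, whose list summed to between 12690 and 22460 CPM (counts scaled to library size, with TMM scaling between libraries). A marker of neighbouring tissue varied among libraries: Ttr, the transport protein made by choroid plexus, ranged from 1196 to 2450 CPM in vehicle and from 909 to 2741 in SN-011.

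Of the 18537 genes, 3 (0.0162%) differed between SN-011 and vehicle at an adjusted p under 0.05 (edgeR quasi-likelihood test, Benjamini-Hochberg adjustment). C3 and Siglec1 rose (0.0108% of genes called higher), and Nr4a3 fell (0.00539% called lower). C3 encodes the central component of the complement cascade and is a widely used marker of reactive astrocytes. Siglec1 encodes sialoadhesin, a sialic acid receptor of macrophages that is induced by interferon. Nr4a3 encodes an orphan nuclear receptor and is an immediate early gene, transcribed within minutes of neuronal activity or injury. In bulk tissue, more cells of a type and more RNA per cell cannot be told apart.

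C3 (chr17:57203970-57228136, GRCm38) stood at 3.50, 1.56 and 4.70 CPM in vehicle replicates 1 to 3 and at 24.8, 22.9 and 24.7 CPM in SN-011 replicates 1 to 3. The 3 SN-011 libraries were nearly equal, and each lay far above every vehicle library. The log2 fold change was 2.89 ± 0.38 (SE, n = 3 and 3), with an adjusted p of 0.0414 in edgeR. Sham libraries held 1.09, 2.18 and 2.54 CPM, so the vehicle range began inside the sham range.

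Siglec1 (chr2:131069220-131086765) stood at 0.4998, 0.846 and 0.901 CPM in vehicle and at 3.47, 5.32 and 9.32 CPM in SN-011. All SN-011 values exceeded all vehicle values, with SN-011 replicate 3 the highest. Its log2 fold change was 3.004 ± 0.41 (SE), and its adjusted p was 0.0414 in edgeR. Sham libraries lay between 0.363 and 0.425 CPM.

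Nr4a3 (chr4:48045153-48086447) stood at 60.6, 61.5 and 53.2 CPM in vehicle and at 14.7, 18.7 and 24.7 CPM in SN-011. The highest SN-011 value was under the lowest vehicle value. Its log2 fold change was -1.59 ± 0.21 (SE), with an adjusted p of 0.0414 in edgeR. The 3 sham libraries held 18.99, 19.5 and 18.7 CPM, within the SN-011 range and below all vehicle libraries. Vehicle would serve as the control of both differences, so the sham levels are given without a test.

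These 3 calls rested on few libraries. Without any one vehicle library no gene was called by edgeR, with 1326, 1309 and 2416 genes at an unadjusted p under 0.05 when vehicle replicates 1, 2 and 3 were left out in turn. Without SN-011 replicate 1, Siglec1 alone was called. The sizes moved little: leaving out each of the 6 libraries in turn gave log2 fold changes from 2.56 to 3.25 for C3, from 2.55 to 3.29 for Siglec1 and from -1.87 to -1.42 for Nr4a3.

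**Figure D1:**
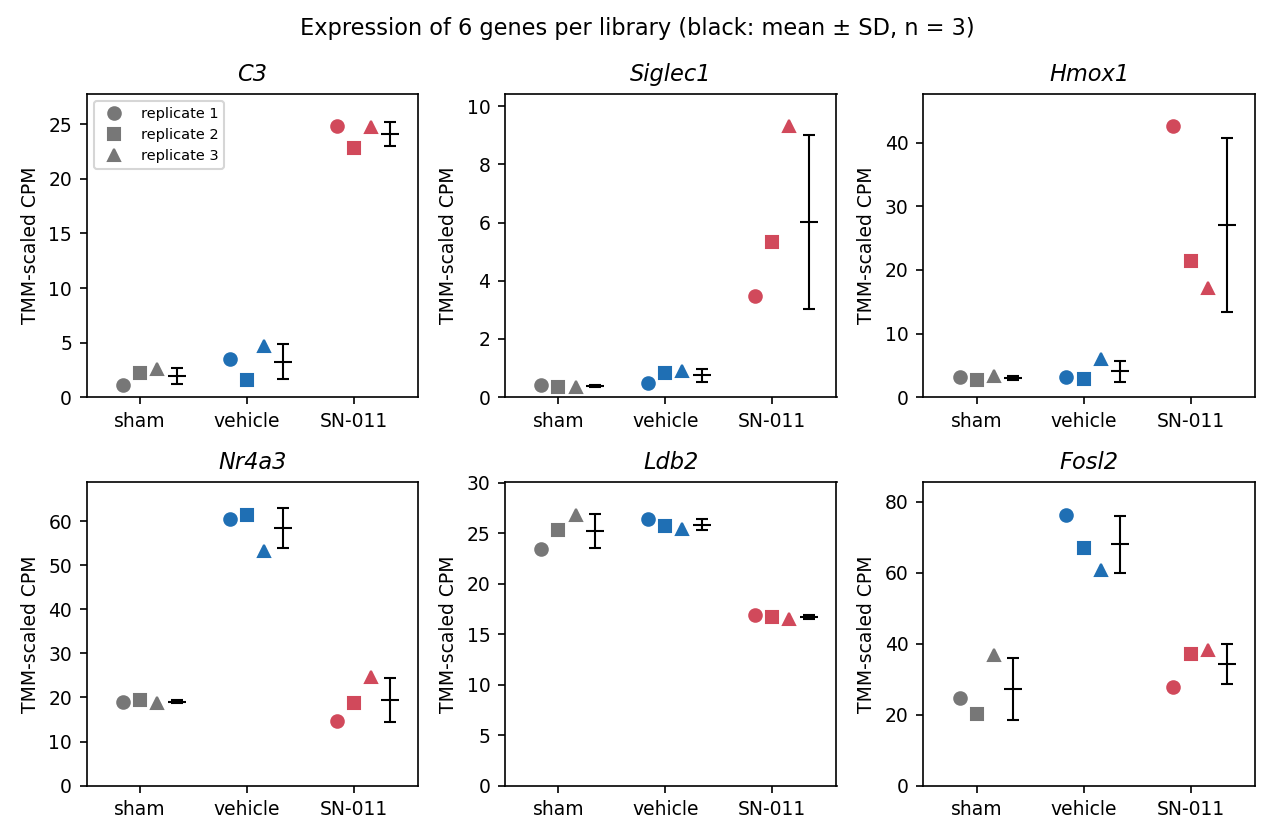
TMM-scaled CPM per library of C3, Siglec1, Hmox1, Nr4a3, Ldb2 and Fosl2 in sham, vehicle and SN-011, with each group's mean and SD in black (n = 3). The SN-011 points of C3 sit between 22.9 and 24.8 and those of Nr4a3 between 14.7 and 24.7, apart from the vehicle points in both panels.

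The sequences before C3 and Nr4a3 are shown because these genes moved in opposite directions, and the sequence before Egr4 because it is a further immediate early gene with lower values in SN-011. They are RefSeq promoter sequences of build GRCm38.p6, read 5′ to 3′ on the gene's strand and ending at the last base before the annotated gene. Capitals mark matches on either strand to 3 motifs: the cyclic AMP response element half-site TGACG, the NF-kB motif (GGGA, any 4 bases, then CC) and the C/EBP motif TTGCNNAA.
C3, chr17:57228137-57228386, minus strand: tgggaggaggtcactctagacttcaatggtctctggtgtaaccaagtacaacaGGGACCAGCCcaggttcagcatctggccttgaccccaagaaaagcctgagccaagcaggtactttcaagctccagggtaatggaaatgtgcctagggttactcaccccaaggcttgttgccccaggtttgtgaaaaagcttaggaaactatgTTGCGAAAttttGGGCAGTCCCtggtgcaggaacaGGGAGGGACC
Nr4a3, chr4:48045055-48045152, plus strand: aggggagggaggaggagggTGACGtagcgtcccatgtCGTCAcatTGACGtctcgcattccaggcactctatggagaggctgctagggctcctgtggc
Egr4, chr6:85513590-85513839, minus strand: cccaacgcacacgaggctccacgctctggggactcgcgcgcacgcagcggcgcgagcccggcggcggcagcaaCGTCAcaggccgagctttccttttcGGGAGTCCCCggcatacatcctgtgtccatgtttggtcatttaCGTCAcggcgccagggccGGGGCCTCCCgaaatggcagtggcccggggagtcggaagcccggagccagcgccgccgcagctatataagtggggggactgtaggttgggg

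In the 250 bases before C3 there were 3 NF-kB matches and 1 C/EBP match, and no match overlapped another. Among 32851 mouse promoters, 17.6% held an NF-kB match and 9.56% a C/EBP match in a window of that length. The 98 bases before Nr4a3 held 3 half-site matches. Of all promoters, 5.22% held any in the 98 bases farthest from the start within a window of 250 bases. Egr4 had 2 half-site and 2 NF-kB matches in 250 bases, where 17.8% of promoters held a half-site. These are matches of letters and not measured binding.

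Away from the 3 called genes, those with a small unadjusted p were more often higher than lower. At an unadjusted edgeR p under 0.05, 1621 genes (8.74%) were higher in SN-011 and 429 (2.31%) lower. Without SN-011 replicate 3 they numbered 684 (3.58%) and 206 (1.08%). All 3 SN-011 values lay above all 3 vehicle values for 1671 genes (9.01%) and below them for 1356 (7.32%). SN-011 replicate 3 was the highest of the SN-011 libraries in 1272 of those 1671 genes (76.1%) and the lowest in 811 of the 1356 (59.8%). Over all genes tested there was no such lean: 9039 of 18537 had a log2 fold change above 0, and the median was -0.008.

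**Figure D2:**
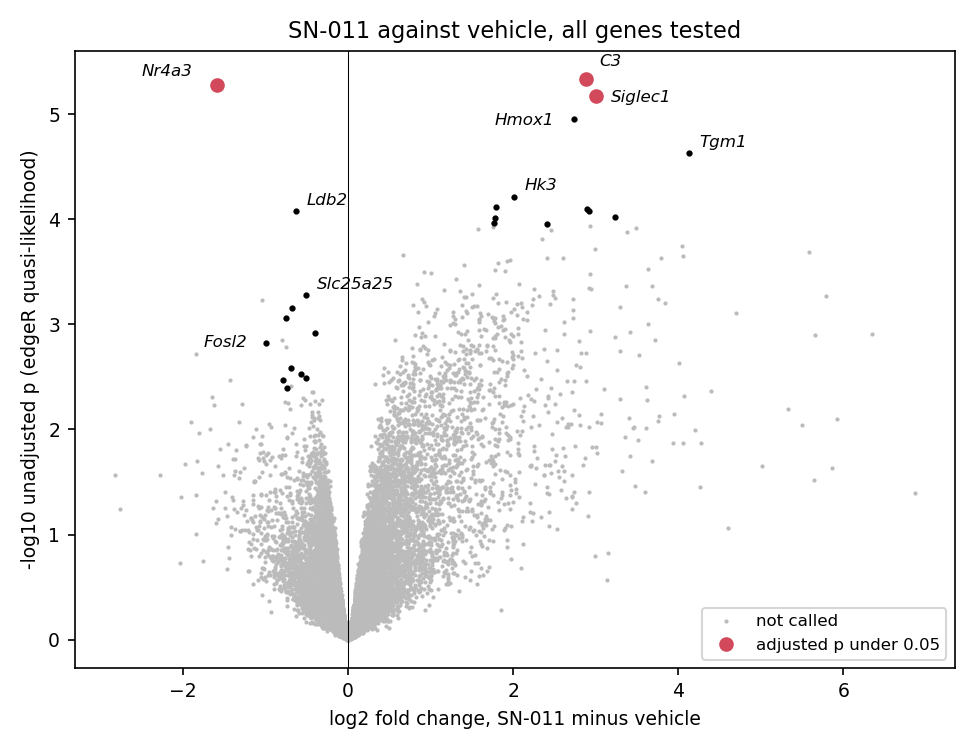
Each point is 1 of the 18537 genes tested, with its log2 fold change (SN-011 minus vehicle) on the horizontal axis and -log10 of the unadjusted edgeR p on the vertical axis. The 3 called genes are red, the other genes with the smallest p in each direction that the text describes are black, and the points spread farther to the right than to the left.

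Behind C3 and Siglec1, none of the higher genes with the smallest p passed the adjusted threshold. Hmox1, which encodes heme oxygenase 1, the stress-induced enzyme that breaks down heme, came closest. It stood at 3.25, 2.93 and 5.99 CPM in vehicle and at 42.6, 21.4 and 17.1 in SN-011 (log2 fold change 2.74 ± 0.39, adjusted p 0.0515 in edgeR). SN-011 replicate 1 was the highest here, unlike in most genes without overlap. Tgm1, a transglutaminase counted among the genes of reactive astrocytes, stood at 0.4998, 0.260 and 1.42 CPM in vehicle and at 8.49, 5.79 and 24.0 in SN-011, for an adjusted p of 0.0872 in edgeR.

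The following 8 genes in that order, Hk3, Plekha4, Lyz2, Ptx3, Lgals3, Serping1, Ifi30 and Capg, shared an adjusted p of 0.121 in edgeR. Lyz2 encodes the lysozyme of macrophages and microglia, and its level was 7.56, 8.46 and 12.9 CPM in vehicle against 41.6, 44.0 and 129.9 in SN-011. For Lgals3, the galectin of phagocytes, vehicle held 1.31, 1.30 and 2.96 CPM and SN-011 held 14.2, 10.5 and 27.8. Both genes were above the whole vehicle range in each SN-011 library, most of all in replicate 3. Capg encodes an actin-capping protein abundant in macrophages, with 1.44 to 3.54 CPM in vehicle and 8.15 to 19.95 in SN-011. Hk3, a hexokinase of myeloid cells, had 2.08 to 2.50 CPM in vehicle and 6.90 to 13.3 in SN-011.

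Ptx3, a secreted pentraxin that binds complement, was at 0.625, 0.130 and 0.837 CPM in vehicle and at 6.53, 2.28 and 3.40 in SN-011. Serping1 encodes the C1 inhibitor of the complement and contact systems. It ranged from 4.49 to 5.81 CPM in vehicle and from 8.83 to 28.5 in SN-011. Ifi30, the lysosomal thiol reductase used in antigen processing, ranged from 3.00 to 3.99 CPM in vehicle and from 8.48 to 16.8 in SN-011, and Plekha4 from 1.19 to 2.32 and from 4.27 to 7.95. Strand use in counting is not given, and Hk3, Ptx3, Tgm1, Plekha4 and Ifi30 overlap annotated genes on the opposite strand whose reads may be mixed with theirs. C3 overlaps a microRNA gene on its own strand. Lyz2 has a near-identical neighbour gene, which makes its count uncertain.

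On the lower side, the smallest p after Nr4a3 belonged to Ldb2, which encodes a LIM domain-binding adaptor of transcription factor complexes. It stood at 26.4, 25.8 and 25.4 CPM in vehicle and at 16.9, 16.7 and 16.6 in SN-011 (log2 fold change -0.63 ± 0.11, adjusted p 0.121 in edgeR). Both groups were tight, and the sham libraries, at 23.5 to 26.9 CPM, lay with vehicle. For several other lower genes the sham libraries lay nearer to SN-011 instead. Slc25a25, a mitochondrial ATP-Mg carrier, ranged from 83.7 to 86.4 CPM in vehicle, from 55.2 to 62.7 in SN-011 and, in sham, from 49.4 to 60.6. Lars2, the mitochondrial leucyl-tRNA synthetase, had vehicle levels of 102.1 to 113.6 CPM, SN-011 levels of 62.03 to 72.1 and sham levels of 69.2 to 82.3. Frmd6, a FERM-domain protein of the Hippo pathway, was at 37.8 to 41.1, 20.5 to 26.0 and 24.0 to 26.0 CPM in the same order.

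The adjusted p was 0.149 for Slc25a25, Lars2 and Frmd6 in edgeR, so none of these was called. Kitl, the ligand of the KIT receptor, had 73.2 to 110.4 CPM in vehicle and 52.0 to 72.5 in SN-011. Cdh9, a cadherin of synaptic adhesion, had 27.6 to 38.3 and 13.3 to 22.5 CPM. Sfxn4, a mitochondrial membrane protein, had 23.2 to 26.9 and 17.4 to 18.7 CPM. The zinc finger genes Zbtb11 and Zfp948 had 52.3 to 57.7 and 13.3 to 20.4 CPM in vehicle against 39.8 to 43.8 and 9.77 to 10.96 in SN-011. Their adjusted p lay between 0.157 for Zbtb11 and 0.195 for Zfp948 in edgeR, and none was called. Slc25a25, Zbtb11, Cdh9 and Ldb2 overlap other annotated genes.

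**Figure D3:**
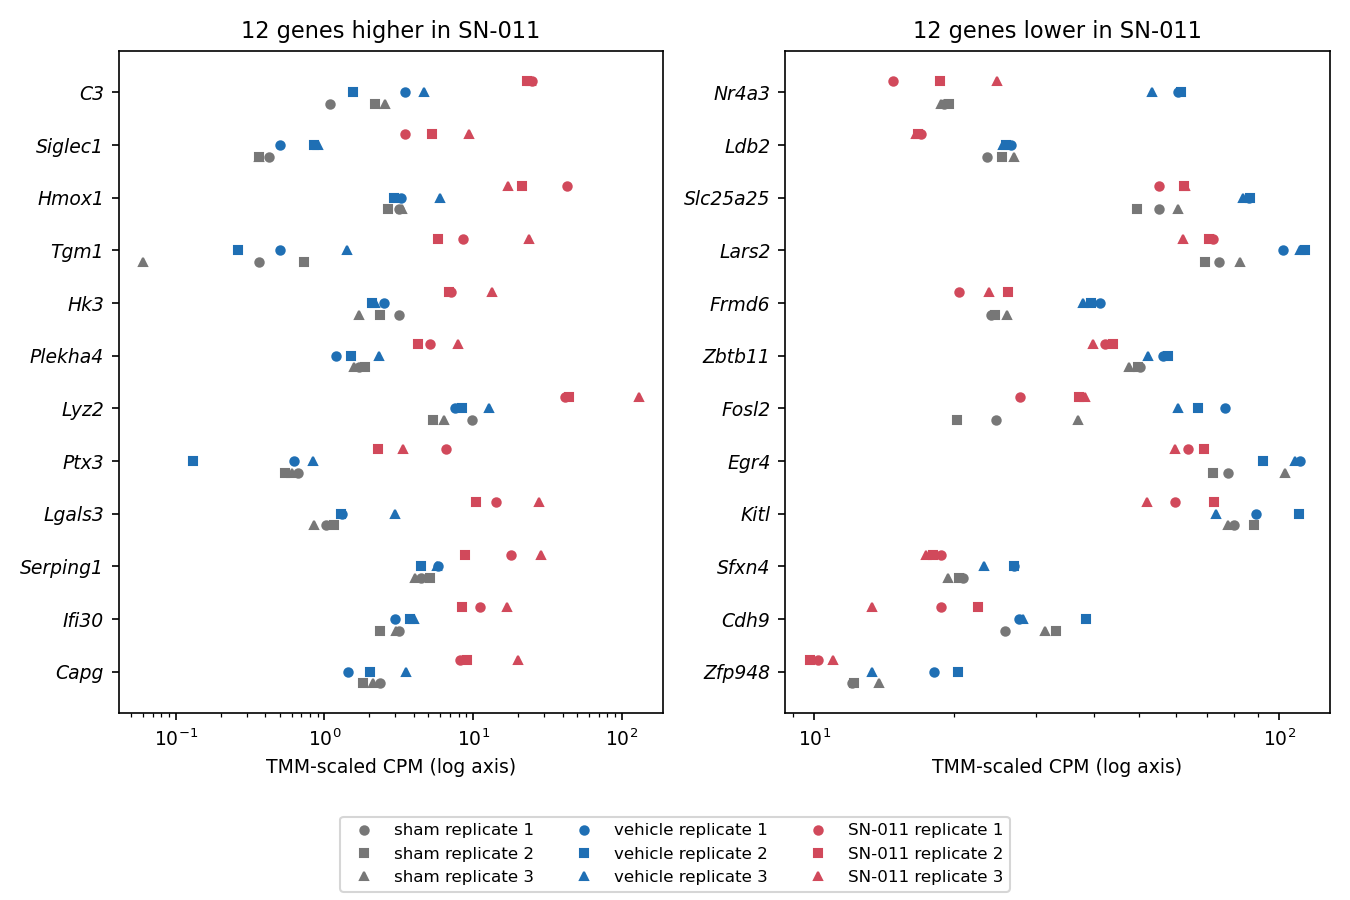
TMM-scaled CPM (log axis) in each sham, vehicle and SN-011 library for the 12 genes with the smallest p among those higher in SN-011 (left) and the 12 among those lower (right), with no overlap between SN-011 and vehicle. Red SN-011 points lie to the right of blue vehicle points in the left panel and to their left in the right panel, and for Nr4a3, Lars2 and Frmd6 the grey sham points lie near the SN-011 points.

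The cGAS-STING pathway itself was examined through 20 genes, of which 18 were tested and none was called. Tmem173, the gene of STING, stood at 3.37, 4.82 and 4.44 CPM in vehicle and at 6.76, 5.44 and 14.8 in SN-011. Each SN-011 value was above the vehicle range, yet the log2 fold change of 1.10 ± 0.40 had an adjusted p of 0.314 in edgeR. Cgas, the DNA sensor, ranged from 1.44 to 1.69 CPM in vehicle and from 2.20 to 4.33 in SN-011 (adjusted p 0.359 in edgeR). The 2 signalling steps behind STING had overlapping values: Tbk1 ranged from 42.2 to 50.8 CPM in vehicle and from 42.5 to 46.6 in SN-011, and Irf3 from 17.8 to 27.2 and from 23.8 to 27.5. Cgas and Irf3 overlap annotated genes on the opposite strand. An antagonist acts on the protein, and the RNA of these genes does not measure whether STING was blocked.

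Among pathway members on either side of that core, Ifi204, a DNA sensor of the interferon-inducible p200 family, stood at 0.4998, 1.76 and 1.54 CPM in vehicle and at 5.55, 2.52 and 12.7 in SN-011. The receptor subunit gene Ifnar2 ranged from 10.4 to 11.9 CPM in vehicle and from 13.9 to 27.6 in SN-011. Irf7, the factor that amplifies interferon production, ranged from 2.62 to 6.96 CPM in vehicle and from 4.62 to 31.3 in SN-011, and the groups overlapped. Their adjusted p were 0.149, 0.195 and 0.216 in edgeR. Ifnb1, which encodes interferon beta, had 0 counts in all 9 sham, vehicle and SN-011 libraries, which allows a level of up to 0.19 CPM in the shallowest of them (3 counts, counting error only). In the list, 9 of 18 genes were higher at an unadjusted p under 0.05 and 0 lower, against 8.74% and 2.31% of all genes. The median log2 fold change was 0.55. Without SN-011 replicate 3 it was 0.23 and 3 of 18 were higher, against 3.58% of all genes.

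Interferon-stimulated genes, the usual readout of the pathway, were represented by 39 genes, all tested. None was called. At an unadjusted p under 0.05, 28 were higher in SN-011 and 0 lower, against 8.74% and 2.31% of all genes, and the median log2 fold change was 1.20. SN-011 replicate 2 was the lowest of the 3 SN-011 libraries for 39 of the 39 genes, and its list median relative to the vehicle mean was 0.039, inside the vehicle range of -0.51 to 0.51. SN-011 replicates 1 and 3 stood at 1.24 and 1.92 on that scale. The groups overlapped for most of the list, and 6 of 39 genes had all SN-011 values above all vehicle values, against 9.01% of all genes. Without SN-011 replicate 3, 9 of the 39 were higher at an unadjusted p under 0.05, where the share over all genes was 3.58%, and the median was 0.67.

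Cxcl10, the interferon-induced chemokine that attracts T cells, shows this spread: 0.312, 0.781 and 0.772 CPM in vehicle and 14.0, 1.64 and 10.4 in SN-011. For Bst2, the antiviral protein tetherin, vehicle held 3.00, 8.85 and 5.86 CPM and SN-011 held 16.8, 9.24 and 33.5. Oas3, a sensor of double-stranded RNA, was under 0.39 CPM in each vehicle library and at 2.6, 0.468 and 4.66 CPM in SN-011. Its vehicle counts of 3, 2 and 6 were under the filter's minimum of 10, so it was admitted through other groups. In all 3 genes SN-011 replicate 2 was the SN-011 library nearest to vehicle.

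Antigen presentation genes had the same order of libraries. Of 20 tested, 15 were higher at an unadjusted p under 0.05 and 6 lay above vehicle without overlap, against 8.74% and 9.01% of all genes. None was called, and the median log2 fold change was 1.47. Without SN-011 replicate 3 the median was 0.84 and 10 of 20 were higher, against 3.58% of all genes. H2-D1, a class I heavy chain, stood at 40.1, 54.7 and 47.8 CPM in vehicle and at 131.4, 64.1 and 326.6 in SN-011. H2-K1, the other classical class I gene of this strain, stood at 31.1, 55.4 and 34.0 against 97.5, 51.7 and 206.9 CPM, with SN-011 replicate 2 inside the vehicle range. Psmb8, an immunoproteasome subunit, ranged from 1.19 to 2.64 CPM in vehicle and from 2.75 to 10.03 in SN-011. Class I genes share sequence, so reads may be split among them.

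Complement genes held 1 of the 3 calls, C3. Of 15 tested, 12 were higher at an unadjusted p under 0.05 and 11 lay above vehicle without overlap, against 8.74% and 9.01% of all genes. The median log2 fold change was 1.87. Without SN-011 replicate 3 it was 1.21, with 10 of 15 higher, against 3.58% of all genes. C5ar1, the receptor for the anaphylatoxin C5a, stood at 0.187, 0.521 and 1.03 CPM in vehicle and at 2.83, 3.45 and 7.01 in SN-011. C1qa, a chain of the initiating protein C1q that microglia make, stood at 31.8, 25.6 and 54.3 against 99.2, 77.4 and 380.2 CPM. C4b, a component of the classical pathway made by astrocytes among other cells, overlapped, with 65.3, 79.3 and 161.1 CPM in vehicle and 322.6, 148.5 and 575.6 in SN-011.

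Of 21 cytokine and chemokine genes tested from a list of 25, 16 were higher at an unadjusted p under 0.05, against 8.74% of all genes. None was called, and the median log2 fold change was 1.62. Without SN-011 replicate 3, where 23 were tested, 11 were higher, against 3.58% of all genes, and the median was 1.06. Il6, Ccl7, Cxcl1 and Cxcl2 did not pass the filter on low counts. Some members near 0 counts in vehicle passed it through other groups, so they could count as higher but hardly as lower. The count of higher genes is therefore partly set by the filter. Spp1, which encodes osteopontin, was at 2.75, 3.32 and 5.99 CPM in vehicle and at 43.2, 98.5 and 59.6 in SN-011, with SN-011 replicate 2 the highest. Its log2 fold change of 4.06 ± 0.80 had an adjusted p of 0.149 in edgeR, and 0.0157 when only the 6 libraries entered the fit. Tgfb1, the anti-inflammatory cytokine TGF-beta 1, ranged from 5.81 to 9.27 CPM in vehicle and from 12.5 to 34.9 in SN-011.

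Microglia were read through 16 genes of the resting state and 23 of the activated state. Of the resting genes, 12 of 16 were higher at an unadjusted p under 0.05, against 8.74% of all genes, and the median log2 fold change was 1.05. Of the activated genes, 21 of 23 were, and the median was 2.10. Without SN-011 replicate 3 these became 6 of 16 with a median of 0.47 and 14 of 23 with a median of 0.90. The share over all genes was then 3.58%. None of these 39 entries was called.

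Tmem119, a surface protein of microglia, stood at 17.5, 17.9 and 26.2 CPM in vehicle and at 39.3, 32.4 and 58.0 in SN-011. Csf1r, the receptor that microglia need to survive, stood at 120.4, 121.2 and 143.6 against 213.6, 156.2 and 470.3 CPM. For Trem2, the lipid-sensing receptor of phagocytic microglia, vehicle held 13.8, 11.97 and 18.9 CPM and SN-011 held 34.8, 24.7 and 142.1. The 3 genes had no overlap, and replicate 3 was well above the other SN-011 libraries. Gpnmb, a glycoprotein of lipid-laden phagocytes, differed from them in that its SN-011 values were high in each library: 31.1, 52.9 and 53.9 CPM against 1.25, 1.89 and 5.21 in vehicle (log2 fold change 4.05 ± 0.77, adjusted p 0.149 in edgeR).

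Lysosomal and lipid-handling genes of phagocytes had 14 of 20 members higher at an unadjusted p under 0.05, against 8.74% of all genes. The median log2 fold change was 0.93. Without SN-011 replicate 3 it was 0.49 and 11 of 20 were higher, against 3.58% of all genes. Msr1, a scavenger receptor, stood at 0.062, 0.260 and 0.257 CPM in vehicle and at 1.73, 2.98 and 2.96 in SN-011. Grn, the precursor of the lysosomal granulins, stood at 52.0, 54.9 and 78.6 against 125.4, 114.5 and 487.9 CPM. Each gene had SN-011 values above the whole vehicle range.

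Genes of blood-derived and border cells did not all share a direction. Log2 fold changes were above 0 for 12 of 14 tested genes of monocytes and border macrophages, with a median of 0.84. They were above 0 for 6 of 8 lymphocyte genes and below 0 for 2 of 2 neutrophil genes. Siglec1 was called, and 3 of the 14 were higher at an unadjusted p under 0.05, against 8.74% of all genes. The summed level of the monocyte and border macrophage list was 23.8 to 33.6 CPM in vehicle and 35.2 to 52.1 in SN-011. Cd5l, a secreted macrophage protein, varied widely among SN-011 libraries, at 0.636, 3.04 and 18.6 CPM against 0.125, 0 and 0.257 in vehicle. Ms4a7, a border macrophage marker, stood at 0.231, 1.11 and 4.60 CPM in SN-011 and overlapped vehicle. The 2 members with the highest mean level had overlapping groups and log2 fold changes below 0: Cd163, the hemoglobin scavenger receptor of border macrophages, ranged from 12.4 to 18.8 CPM in vehicle and from 7.23 to 12.9 in SN-011, and Clec12a, an inhibitory lectin receptor of myeloid cells, from 5.53 to 6.12 and from 4.71 to 5.604. Only 2 of 9 neutrophil genes passed the filter, and S100a9, a calcium-binding protein abundant in neutrophils, was at 0.562, 0.651 and 0.322 CPM in vehicle and 0.289, 0.234 and 0.219 in SN-011. Of 15 lymphocyte genes, 8 passed the filter and 4 were higher at an unadjusted p under 0.05, against 8.74% of all genes. Without SN-011 replicate 3 it was 2 of 11, against 3.58%. The members with the smallest p held few counts. Cd79b had 1, 2 and 1 in vehicle and 10, 6 and 11 in SN-011. Nkg7 had 0 in each vehicle library and 5, 1 and 11 in SN-011, and Cd8a 2, 2 and 1 against 15, 5 and 23. Cd79b, Nkg7 and Cd8a passed the filter through groups other than vehicle. They could thus count as higher but hardly as lower, and the count of higher genes is partly set by the filter. Cd4, the co-receptor of helper T cells, was the most abundant of the lymphocyte genes. It ranged from 80.2 to 102.8 CPM in vehicle and from 51.1 to 88.5 in SN-011 (log2 fold change -0.27, adjusted p 0.81 in edgeR). Sham libraries held 82.4 to 93.8 CPM of Cd4. Trbc2, a T cell receptor gene, was at 0.485 to 2.49 CPM in sham, 0.250 to 1.42 in vehicle and 0.404 to 0.936 in SN-011. The Cd4 level is therefore not read here as a level of helper T cells. The median log2 fold change of the list was 1.52, and it was -0.14 when only the 6 libraries entered the fit and 0.003 without the 3d arm, since fewer of its genes were then tested. Whether such cells account for any of the differences was not tested.

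**Figure D4:**
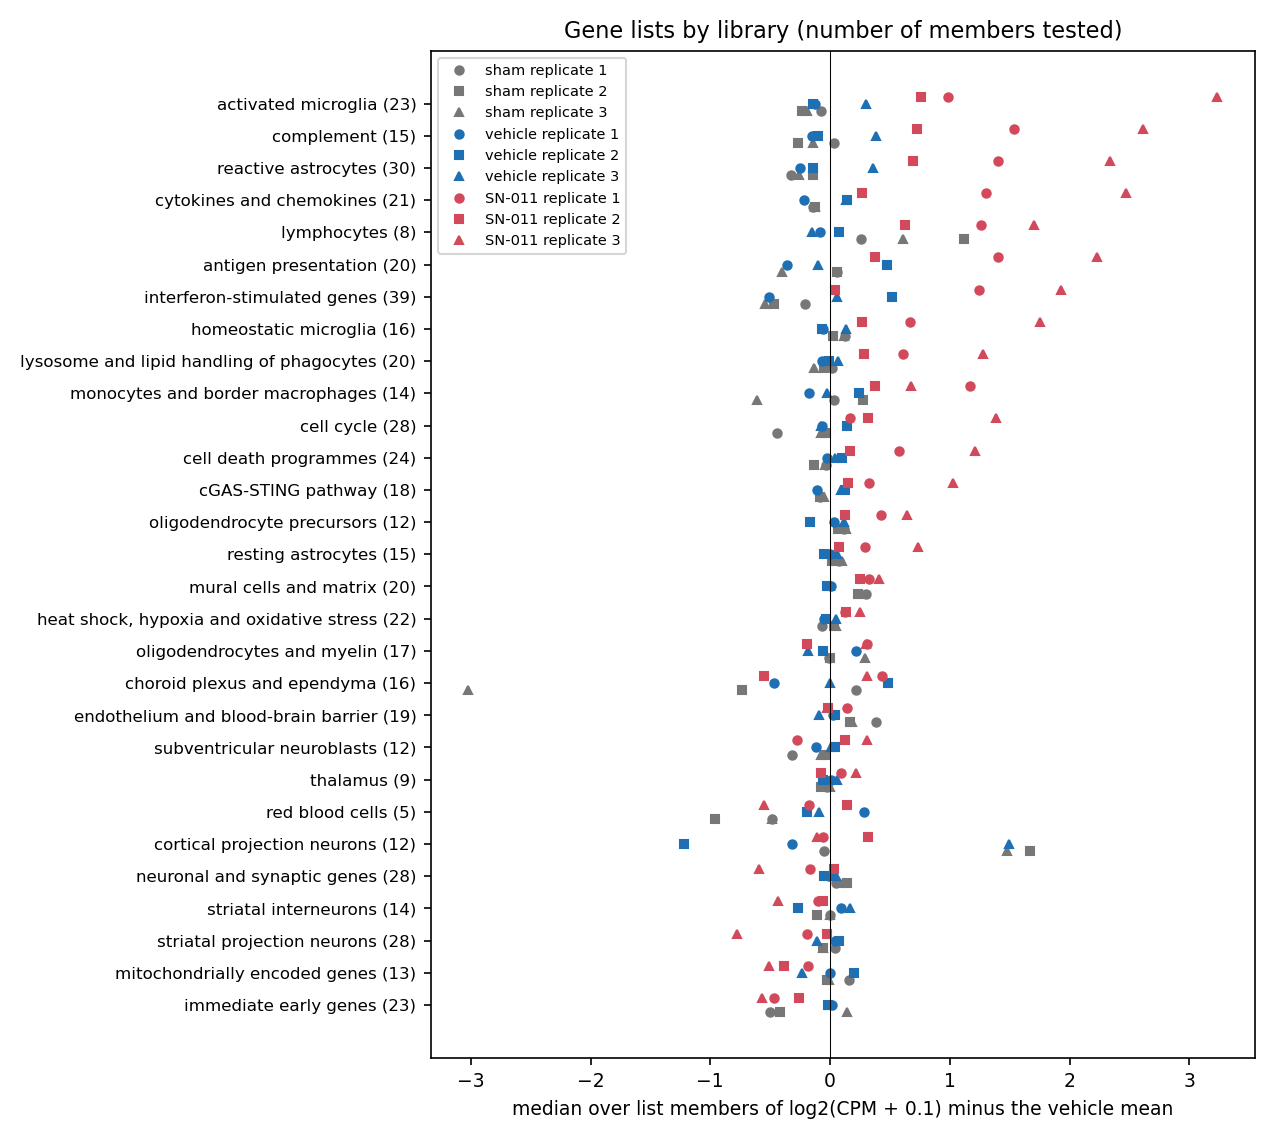
For each gene list except neutrophils, with 2 members tested, a median is drawn for each sham, vehicle and SN-011 library. It is the median over tested members of log2(CPM + 0.1) minus the vehicle mean, with the number of members tested in parentheses. SN-011 replicate 3 lies farthest right for activated microglia, at 3.23, while SN-011 replicate 2 lies at 0.755 there and at 0.039 for interferon-stimulated genes.

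Reactive astrocyte genes had 24 of 30 tested members higher at an unadjusted p under 0.05 and 21 above vehicle without overlap. The shares over all genes were 8.74% and 9.01%. The median log2 fold change was 1.64. Without SN-011 replicate 3, 20 of 30 were higher, against 3.58% of all genes, and the median was 0.98. The sum of the list was 438, 462 and 999 CPM in vehicle and 2371, 1097 and 6420 in SN-011. Gfap, the intermediate filament of astrocytes, stood at 137.8, 127.1 and 492.7 CPM in vehicle and at 1213, 413 and 3644 in SN-011. Its groups overlapped, because vehicle replicate 3 was above SN-011 replicate 2. Vim, a second intermediate filament, stood at 52.0, 59.3 and 95.3 against 276.0, 181.0 and 1187 CPM, with no overlap.

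Timp1, the metalloproteinase inhibitor of reactive glia, ranged from 0.325 to 0.875 CPM in vehicle and from 1.76 to 6.03 in SN-011, with an adjusted p of 0.121 in edgeR. Serpina3n, a protease inhibitor of reactive astrocytes that was picked after its values were seen, stood at 13.7, 7.22 and 47.3 CPM in vehicle and 178.1, 105.4 and 430.1 in SN-011. In each of these genes SN-011 replicate 2 was the lowest of its group and replicate 3 the highest. Resting astrocyte genes had a smaller median log2 fold change, 0.43, and 6 of 15 were higher at an unadjusted p under 0.05, against 8.74% of all genes. Without SN-011 replicate 3 the median was 0.22 and 2 of 15 were higher, against 3.58% of all genes. Aqp4, the water channel of astrocyte endfeet, ranged from 97.8 to 138.5 CPM in vehicle and from 152.1 to 424.3 in SN-011. Aldh1l1, a folate enzyme that marks astrocytes, ranged from 45.0 to 47.4 and from 59.1 to 155.2 CPM.

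Oligodendrocyte lineage genes also had smaller medians. Of 12 precursor genes, 6 were higher at an unadjusted p under 0.05, against 8.74% of all genes, with a median log2 fold change of 0.46. Without SN-011 replicate 3, 2 of 12 were higher, against 3.58% of all genes, and the median was 0.34. Matn4, a matrix protein of precursors, ranged from 12.3 to 15.1 CPM in vehicle and from 16.2 to 26.1 in SN-011. Of 17 genes of mature oligodendrocytes and myelin, 1 was higher at that threshold, against 8.74% of all genes. It was Cldn11, the tight junction protein of myelin, at 255.7 to 321 CPM in vehicle and 287.8 to 507.4 in SN-011. Mbp, the major myelin basic protein, overlapped, at 3018 to 4106 and 3312 to 4932 CPM.

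Immediate early genes leaned lower in SN-011, with and without SN-011 replicate 3. Besides Nr4a3, which was called, 5 more of 23 were lower at an unadjusted p under 0.05, against 2.31% of all genes. In all, 11 had every SN-011 value below every vehicle value, against 7.32% of all genes. Jun, the partner of Fos proteins in AP-1, was higher at that threshold, at 23.2, 22.6 and 34.6 CPM in vehicle and 39.5, 33.5 and 44.5 in SN-011. The median log2 fold change was -0.45. Without SN-011 replicate 3 it was -0.48 and 8 of 23 were lower, where the share over all genes was 1.08%. Relative to the vehicle mean, the immediate early list stood at 0.013, -0.017 and -0.008 in vehicle replicates 1 to 3 and at -0.47, -0.26 and -0.57 in SN-011. Cortical projection neurons also express such genes. Their marker list had medians of -0.32, -1.22 and 1.498 in vehicle and of -0.06, 0.32 and -0.11 in SN-011, on the same scale. Whether cortical tissue bears on the immediate early genes was not tested.

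Fosl2, a Fos family member of AP-1, stood at 76.5, 67.0 and 60.7 CPM in vehicle and at 27.7, 37.1 and 38.1 in SN-011 (log2 fold change -0.99 ± 0.25, adjusted p 0.167 in edgeR). Egr4, whose promoter is printed above, stood at 110.7, 92.5 and 107.9 against 63.7, 69.0 and 59.6 CPM (adjusted p 0.186 in edgeR). Egr1, the best known zinc finger factor of this class, stood at 600.4, 641.5 and 499.7 against 291.8, 419.6 and 314.7 CPM (adjusted p 0.259 in edgeR). In all 3 genes the groups did not overlap. Nr4a1 and Arc, picked after their values were seen, had 209.2 to 247.4 and 208.7 to 227.3 CPM in vehicle, and 92.6 to 155.9 and 131.4 to 161.3 in SN-011. Sham libraries did not share one level: sham replicate 3 held 179.0 CPM of Nr4a1 and 261.5 of Arc, and the other two between 69.0 and 110.5.

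Genes of striatal projection neurons were lower in value in SN-011 for 28 of 28 tested, by a median log2 fold change of -0.29, and none was called. SN-011 replicate 3 was the lowest of the 6 libraries for 27 of the 28, and without it the median was -0.10 and 0 of 28 were lower at an unadjusted p under 0.05. The list summed to 22390, 22460 and 20960 CPM in vehicle and 19980, 21760 and 12690 in SN-011. Cnr1, the cannabinoid receptor of these neurons, stood at 519.7, 541.6 and 447.1 CPM in vehicle and at 396.8, 433.8 and 162.0 in SN-011. Ebf1, a transcription factor of the direct-pathway neurons, was the single member with an unadjusted p under 0.05, at 20.1 to 26.9 CPM in vehicle and 15.5 to 20.6 in SN-011, and its adjusted p was 0.428 in edgeR.

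General neuronal and synaptic genes followed the same order of libraries, with SN-011 replicate 3 the lowest of the 6 for 28 of 28. Their median log2 fold change was -0.24, and -0.08 without that library. Snap25, a SNARE protein of synaptic vesicle release, stood at 1085, 1091 and 1007 CPM in vehicle and at 846, 909 and 618.5 in SN-011. Nefl, the neurofilament light chain, stood at 193.5, 213.8 and 169.8 against 148.0, 167.9 and 79.8 CPM (adjusted p 0.364 in edgeR). By list median, SN-011 replicate 3 thus had both the lowest neuronal and the highest astrocyte and microglia levels of the 6 libraries. Because counts are shares of each library, a higher share of glial RNA lowers the neuronal share, and the part of each cannot be told apart here.

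Genes of the vessel wall were taken in 2 lists. Of 19 endothelial and blood-brain barrier genes, 0 passed an unadjusted p under 0.05, and the median log2 fold change was 0.035. Vwf, the clotting factor of endothelium, ranged from 26.1 to 33.5 CPM in vehicle and from 40.3 to 43.5 in SN-011. Of 20 genes of mural cells and matrix, 4 were higher at that threshold (Timp1, Mmp2, Cspg4 and Tnc), against 8.74% of all genes. The median was 0.37.

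Cell cycle genes had 16 of 28 members higher at an unadjusted p under 0.05, against 8.74% of all genes, and a median log2 fold change of 0.78. SN-011 replicate 3 was the highest of the 6 libraries for 28 of 28. Without it, 1 of 28 was higher at that threshold, against 3.58% of all genes, and the median was 0.27. Cdk1, the kinase that drives mitosis, stood at 2.25, 1.76 and 1.29 CPM in vehicle and at 3.35, 2.22 and 7.07 in SN-011.

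Among 24 cell death genes, 14 were higher at an unadjusted p under 0.05, against 8.74% of all genes. Without SN-011 replicate 3 it was 4, against 3.58% of all genes. Tnfrsf1a, the main receptor for TNF, ranged from 9.75 to 14.1 CPM in vehicle and from 17.0 to 55.6 in SN-011. Gsdmd, the pore-forming protein of pyroptosis, ranged from 2.83 to 3.51 and from 4.68 to 13.9 CPM. Casp4, the inflammatory caspase that can cleave it, stood at 0.4998, 0.195 and 0.451 CPM in vehicle and at 2.31, 0.585 and 4.22 in SN-011. None of the 3 was called, and in each the lowest SN-011 value came from replicate 2.

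Heat shock, hypoxia and oxidative stress genes did not share a direction. Of 22, 4 were higher at an unadjusted p under 0.05 (Hmox1, Atf3, Mt2 and Pdk1) and 1 lower (Bnip3), against 8.74% and 2.31% of all genes. The median log2 fold change was 0.14. Atf3, a stress-induced transcription factor of injured neurons and glia, stood at 0.437, 2.08 and 0.901 CPM in vehicle and at 2.95, 3.33 and 8.44 in SN-011. Mt2, a metallothionein, ranged from 1.31 to 2.34 and from 3.45 to 7.73 CPM.

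How many genes counted as different depended on the test and on single libraries. The same counts gave 432 calls in DESeq2 and 1179 in limma voom with quality weights, of which 415 and 781 were higher in SN-011. Leaving out SN-011 replicate 2 gave 513 calls in edgeR, 506 of them higher. Without SN-011 replicate 3, 7 genes were called: C3, Siglec1, Nr4a3, Hmox1, Tgm1 and, chosen after their values were seen, the macrophage genes Fcer1g and Mpeg1. With the 3 libraries of the 3d arm left out of the fit, 17 genes were called, among them Spp1, Gpnmb, Lgals3, Hmox1, Msr1, Lyz2, Ifi30 and Hk3 on the higher side and Lars2 and Frmd6 on the lower side. C3, Siglec1 and Nr4a3 were each among the calls of both of these fits, of DESeq2, of voom and of the fit without SN-011 replicate 2.

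**Figure D5:**
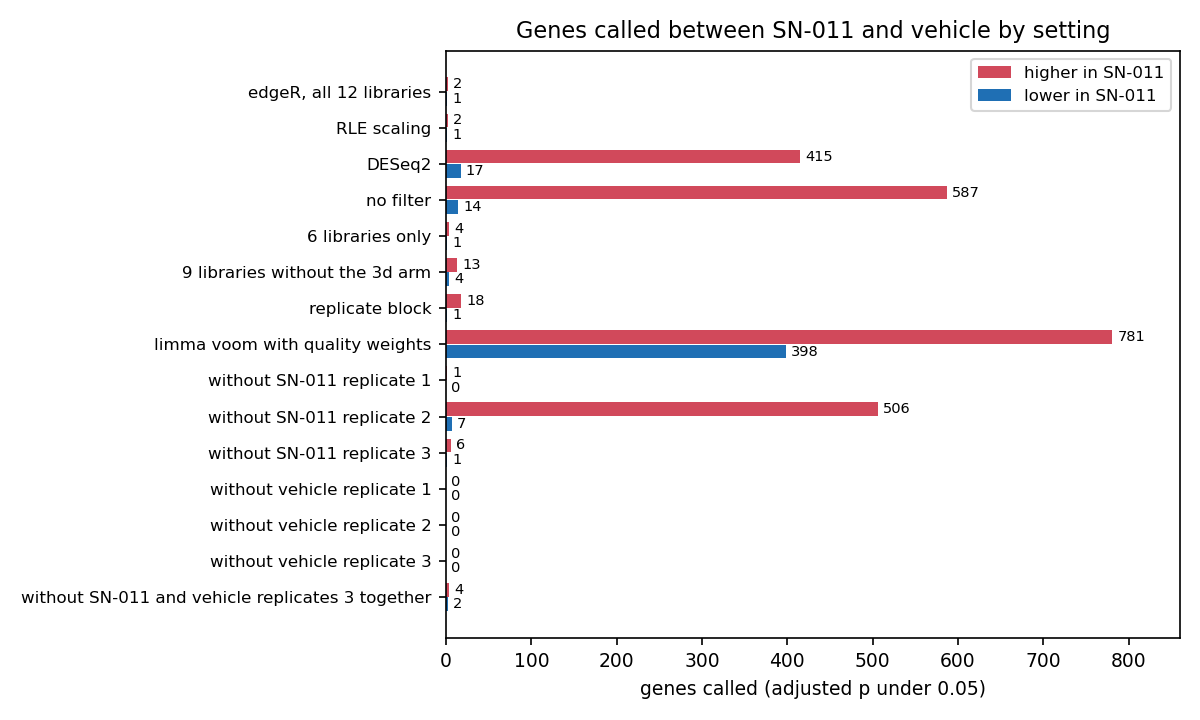
Genes called at an adjusted p under 0.05, higher (red) and lower (blue) in SN-011, for the edgeR fit of all 12 libraries and 14 alternatives, with the number printed at each bar. The fit of all 12 libraries gave 2 higher and 1 lower, and limma voom with quality weights gave 781 and 398.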

How the data were processed

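Per the labels' protocols, Trizol-extracted RNA of striatum was selected for polyA and read from both ends. The submitters' processing notes name HISAT2, featureCounts and mm10, and no source used here gives their versions, the annotation or the strand setting. The authors deposited 1 table of raw read counts by Ensembl gene for each library. All tables listed the same 54532 genes, of which 54409 had a symbol.

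Counts of all 12 libraries were fitted in edgeR 4.0.16 (R 4.3.3) with TMM scaling, filterByExpr by group (minimum count 10), group as the only term and the quasi-likelihood test of SN-011 minus vehicle. Calls were made at 0.05 after Benjamini-Hochberg adjustment across the 18537 genes tested. The standard error is the log2 fold change divided by the root of F. The script was tested on simulated data. No library repeated another, since the chi-square of replicate pairs was 6.86 to 57.3 times its degrees of freedom.

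The libraries and the 30 gene lists were chosen with earlier results of these data known, and lists are described by counts and medians without a test. Named genes were the called genes, the 12 with the smallest p in each direction among genes without overlap and with a mean of at least 1 CPM, the 3 with the smallest p and 2 with the highest mean of each list, and the core STING genes; Jun, Nr4a1, Arc, Serpina3n, Tnc, Pdk1, Bnip3, Fcer1g and Mpeg1 were chosen after their values were seen. Of 544 list genes, 542 matched a symbol. Gene positions are GRCm38 from GENCODE M21. Alternatives used DESeq2 1.42.0, limma 3.58.1, RLE scaling, no filter, fewer libraries and the replicate number as a block.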

Additional observations from a re-analysis of the deposited data

How the results depend on the processing

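RLE scaling called the same number of genes, 3 (2 higher in SN-011, 1 lower), and every other alternative moved a count by over 1.5 times. DESeq2 called 432 (415 higher, 17 lower), edgeR with no filter 601 (587, 14) and limma voom with quality weights 1179 (781, 398). The 6 libraries alone called 5 (4 higher, 1 lower) without Siglec1, 9 libraries without the 3d arm 17 (13, 4), and the set without SN-011 and vehicle replicates 3 called 6 (4, 2), of which Nr4a3 was 1. With 1 library left out in turn, 0 to 513 genes were called, 0 to 506 higher and 0 to 7 lower: the smallest count came without any of the 3 vehicle replicates and the largest without SN-011 replicate 2. The cause of these shifts was not tested. The replicate block called 19 (18 higher, 1 lower). The numbers did not pair the samples: same-numbered deviations correlated at 0.036, -0.053 and 0.041, and vehicle replicate 1 correlated best with SN-011 replicate 2 (0.113).

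The alternatives gave 1266 values of named genes, which do not cover Trbc2, Cd79b, Nkg7 and Cd8a. Of the 1266, 3 changed direction, all of Ttr. Its log2 fold change was -0.22, -0.035 and -0.16 without SN-011 replicate 1, SN-011 replicate 3 and vehicle replicate 1. With single libraries left out it ranged up to 0.43. The lymphocyte median, 1.52 in the fit of all 12 libraries, was -0.14 with the 6 libraries alone and 0.003 without the 3d arm, with fewer members tested. That of cortical projection neurons ranged from -0.54 to 0.88. The medians of interferon-stimulated genes (0.62 to 1.63), activated microglia (0.90 to 2.48), reactive astrocytes (0.98 to 2.00) and immediate early genes (-0.55 to -0.37) kept their sign under all 14 alternatives. Not every named gene had an adjusted p in all 14: Oas3 and Casp4 had one in 12, Ms4a7 in 13 and S100a9 in 11.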

Other observations

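Marker lists of tissue next to the striatum varied among libraries, and their medians did not separate the groups. Single members, among them Foxj1 and Prkcd, had no overlap. Cortical projection neuron genes had a list median, relative to the vehicle mean, of -0.32, -1.22 and 1.498 in vehicle replicates 1 to 3 and of -0.06, 0.32 and -0.11 in SN-011 replicates 1 to 3. Vehicle replicates 2 and 3 thus marked the ends of the range. None of the 12 genes passed an unadjusted p under 0.05. Genes of choroid plexus and ependyma summed to 2309, 4581 and 3341 CPM in vehicle, 4692, 1892 and 4000 in SN-011 and 497 to 3827 in sham. In that list 1 of 16 genes was higher at an unadjusted p under 0.05, against 8.74% of all genes. It was Foxj1, a factor of ciliated ependyma, at 19.2, 25.4 and 29.9 CPM in vehicle and 35.0, 32.3 and 44.9 in SN-011.

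Of 9 genes marking thalamus, Prkcd and Plekhg1 were higher at an unadjusted p under 0.05, against 8.74% of all genes, and the list median was -0.010. Prkcd, a protein kinase C isoform, stood at 15.9, 14.4 and 16.1 CPM in vehicle and at 23.7, 17.1 and 46.6 in SN-011. Subventricular neuroblast genes had a median of 0.014 with 0 of 12 past that threshold. Red blood cell genes summed to 145.5 to 160.6 CPM in vehicle and 104.7 to 152.0 in SN-011, and 0 of 5 passed. Mitochondrially encoded genes had a median of -0.36, with 2 of 13, mt-Nd3 and mt-Co3, lower at an unadjusted p under 0.05, against 2.31% of all genes.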
